A study of Mus musculus with 4 samples.

Results

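The 43 genes described here encode subunits of the Polycomb and trithorax complexes, and their RNA was followed in the posterior epiblast of the mouse embryo from E7.5 to E8.5. They were taken by gene symbol from a table of 53397 genes. All 43 were found. Genes were tested where 2 or more libraries had a value of 1 or higher, which held for 13903 genes and for 42 of the members. The embryos were wild type at both stages, and E7.5 and E8.5 (embryonic days after mating) stand before and after the start of trunk formation. Each stage had 2 libraries, made with SMART-Seq2 from separate pools of dissected tissue, and neither the number of embryos in a pool nor the sex or strain of these embryos was given in the sources used here. The libraries held between 18488218 and 19493342 reads assigned to genes. E7.5 replicate 1 stood apart in 1 respect, with 25.6% of its total value in the single gene CT010467 against 18.5% to 18.9% in the other 3 libraries.

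Polycomb proteins keep developmental genes silent, and trithorax proteins keep them active. Polycomb repressive complex 2 (PRC2) methylates histone H3 at lysine 27 (H3K27), and Polycomb repressive complex 1 (PRC1) ubiquitinates histone H2A and, in its canonical form, binds the methylated histone through a CBX protein and compacts chromatin. Variant PRC1 carries Rybp or Yaf2 in place of the CBX protein. The MLL complexes, which belong to the trithorax group, methylate histone H3 at lysine 4, and Kdm6a and Kdm6b remove the PRC2 mark. In the posterior epiblast these systems are best known for their control of the Hox clusters, which are opened in order as the axis extends.

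The largest changes over the transition were in subunits of canonical PRC1, where Cbx7 and Phc1 fell and Scmh1 rose. Rbbp7 of the PRC2 core and Kdm2b of variant PRC1 fell, and Yaf2 of variant PRC1 and the methyltransferase Kmt2a rose, by smaller amounts. The other 5 genes of the PRC2 core were not called. Of the 42 members tested, 6 rose and 12 fell at an adjusted p under 0.05 from limma, and 24 were not called. The 18 called members are 42.9% of those tested, against 52.0% of all 13903 genes tested, so the members were not called more often than genes in general. Split by direction, 25.6% of all genes tested rose and 26.4% fell. A change of at least 1 on the log2 scale was reached by 1 member that rose, Scmh1, and by 2 that fell, Cbx7 and Phc1, where 4.48% of all genes tested rose and 6.35% fell by that much. The median log2 fold change of the members was -0.067 and that of all genes tested -0.0074, and 21 of the 42 members moved by less than 0.2 on the log2 scale. Log2 fold changes are E8.5 minus E7.5 on the scale log2(value + 1), which understates the change of low genes. Values are the normalized counts of the deposited table, which are reads scaled by library size and not numbers of reads.

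**Figure D1:**
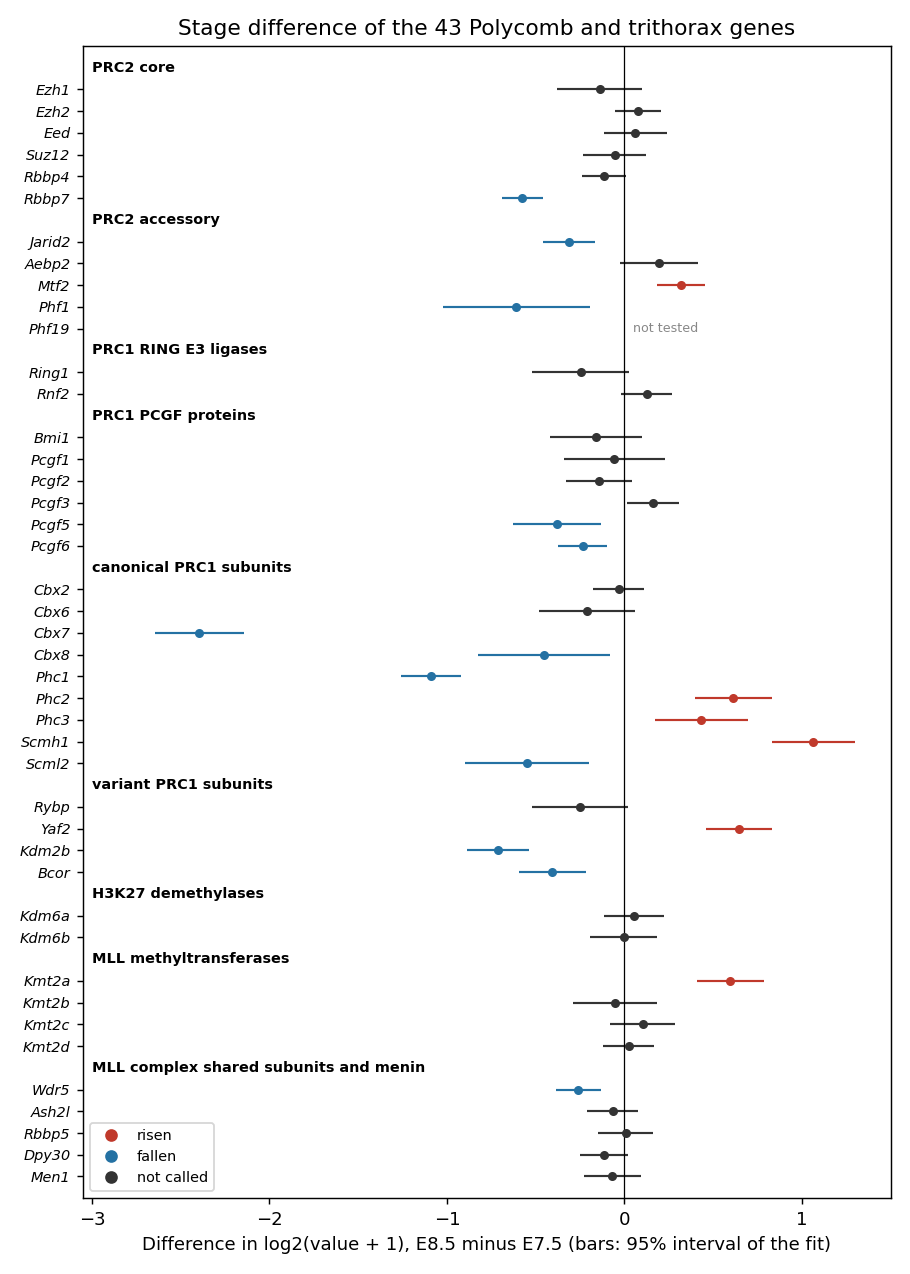
Difference in log2(value + 1) between E8.5 and E7.5 (horizontal axis) for the 43 genes, grouped by complex, where points are the fitted difference and bars its 95% interval over 2 libraries per stage. Cbx7 lies farthest to the left at -2.40 and Scmh1 farthest to the right at 1.07, while the PRC2 core genes other than Rbbp7 sit around 0 and Phf19 was not tested.

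The libraries of the 2 stages did not overlap for 31 of the 42 members tested. Both E8.5 values were above both E7.5 values in 11 members (26.2%, against 37.2% of all genes tested) and below them in 20 (47.6%, against 39.1%). For 1 gene alone, 2 libraries per stage allow no two-sided p smaller than 0.333 in an exact permutation test, and the calls therefore draw on the variance that limma pools over genes. Of the 6 members that rose and the 12 that fell, all 6 and 10 were also called by both edgeR and DESeq2 on reads recovered from the table. Over all genes tested, edgeR called 51.6% (26.1% risen and 25.5% fallen) and DESeq2 40.5% (20.3% and 20.1%). When E8.5 replicate 1 was left out, 7 members fell in place of 12. With another library left out, between 5 and 7 members rose and 9 or 10 fell.

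**Figure D2:**
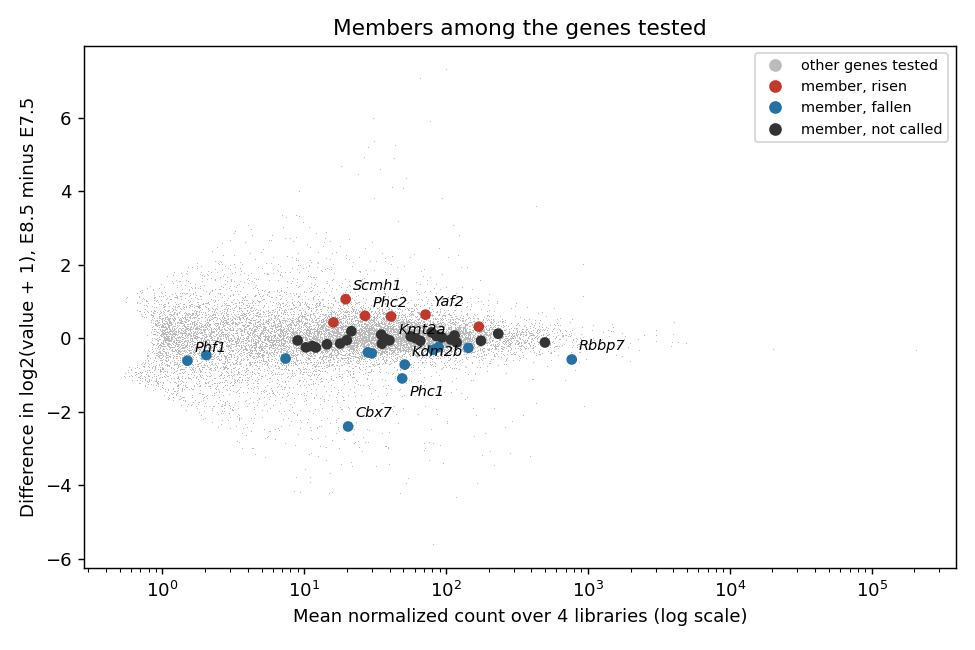
Mean normalized count over the 4 libraries (horizontal axis, log scale) against the difference in log2(value + 1) for the 13903 genes tested (small grey dots) and the 42 members (large dots). Most members lie near 0 at mid to high levels, and Cbx7, Phc1 and Scmh1 are the 3 members beyond 1 or -1.

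Of the 6 genes of the PRC2 core, 1 fell and 5 were not called (16.7% called, against 52.0% of all genes tested). Ezh2, the main methyltransferase, had normalized counts of 111 and 112 at E7.5 against 119 and 117 at E8.5. The E8.5 values were higher without overlap, but the difference was small, at 0.078 on the log2 scale (95% interval -0.053 to 0.21, adjusted p = 0.305 from limma). Its paralog Ezh1, a weaker methyltransferase, had 17.6 and 20.0 at E7.5 against 17.7 and 16.3 at E8.5, and these values overlapped. Eed, which reads the methyl mark and stimulates the enzyme, had 75.7 and 92.3 at E7.5 against 88.2 and 86.3 at E8.5, with a log2 fold change of 0.062 (95% interval -0.12 to 0.24). The E7.5 replicates of Eed lay farther apart than the stages, and without E7.5 replicate 2 it was called higher, at 0.20 (adjusted p = 0.025). Suz12, the scaffold of the complex, had 40.1 and 41.1 at E7.5 against 37.6 and 40.6 at E8.5 (95% interval of the log2 fold change -0.23 to 0.12). For these 4 genes the intervals leave out changes of 0.4 or more in either direction. Rbbp4, a histone-binding subunit that PRC2 shares with other chromatin complexes, had 541 and 494 at E7.5 against 478 and 478 at E8.5. Its log2 fold change was -0.11 (adjusted p = 0.12) with all 4 libraries and -0.18 (adjusted p = 0.0041) without E7.5 replicate 2.

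Rbbp7, the paralog of Rbbp4 and a subunit of the same complexes, was the only core gene called. It lies on the X chromosome (chrX:162760402-162779092, GRCm38) and had normalized counts of 916 and 926 at E7.5 against 614 and 622 at E8.5. It was 1.49-fold lower at E8.5, a log2 fold change of -0.57 ± 0.053 (SE, adjusted p = 4.1e-07), and both replicate pairs were close. Per kilobase of exon, the scale on which levels of different genes can be compared, Rbbp7 was the most abundant member, at 317 at E7.5 and 212 at E8.5, against 59.2 and 54.7 for Rbbp4. Rbbp7 thus made up 83.6% and 84.9% of the summed level of the pair at E7.5 against 79.4% and 79.7% at E8.5. Ezh2 was likewise the main methyltransferase, with 86.9% of the summed level of Ezh1 and Ezh2 at E7.5 and 88.6% at E8.5 (means of 2 libraries).

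The accessory subunits, which guide PRC2 to its sites, moved in different directions. Mtf2, a Polycomb-like protein that binds CpG-rich DNA, rose from 144 and 159 at E7.5 to 189 and 189 at E8.5, a log2 fold change of 0.32 ± 0.063 (SE, adjusted p = 6.4e-04). It shares 395 exon bases (6.93%) with Tmed5 on the other strand, which had 57.3 and 71.4 at E7.5 against 84.5 and 90.4 at E8.5, and the part of these bases in the result for Mtf2 was not tested. Mtf2 was the main Polycomb-like gene of this tissue, with 97.3% of the summed level per kilobase of Mtf2, Phf1 and Phf19 at E7.5 and 98.6% at E8.5. Phf1, another Polycomb-like gene, was near the limit of detection, with 39 and 36 reads at E7.5 against 25 and 13 at E8.5. Its log2 fold change of -0.61 (adjusted p = 0.016) was lost without E7.5 replicate 1 (-0.52, adjusted p = 0.11) and without E8.5 replicate 2 (-0.38, adjusted p = 0.18). Phf1 also shares 39.3% of its exon bases with Cuta on the other strand, and these libraries do not keep the strand, so reads of the 2 genes cannot be told apart there. Cuta itself fell by 0.25 on the log2 scale. Phf19, the last of the Polycomb-like genes, had 14 and 16 reads at E7.5 against 15 and 22 at E8.5, values of 0.787, 0.811, 0.787 and 1.15, and was the only member not tested.

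Jarid2 and Aebp2 belong to another form of PRC2, in which Jarid2 recruits the complex to chromatin that carries ubiquitinated H2A. Jarid2 had normalized counts of 90.5 and 89.4 at E7.5 against 69.7 and 75.1 at E8.5, a log2 fold change of -0.31 ± 0.069 (SE, adjusted p = 0.0015). The stages did not overlap, though without E8.5 replicate 1 the call was narrowly missed (-0.26, adjusted p = 0.051). Aebp2 had 20.3 and 19.6 at E7.5 against 21.7 and 24.4 at E8.5 (log2 fold change 0.19, 95% interval -0.027 to 0.42). Over all 10 tested genes of PRC2, 1 rose and 3 fell, with a median log2 fold change of -0.083. The share called was 40%, against 52.0% of all genes tested. Without E7.5 replicate 2 the log2 fold change of Eed was 0.20.

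Neither of the 2 RING ligases of PRC1 was called, although the stages did not overlap for either gene and they differed in direction. Rnf2 (RING1B), the main E3 ligase for H2A, had normalized counts of 207 and 239 at E7.5 against 244 and 242 at E8.5, a log2 fold change of 0.13 (95% interval -0.017 to 0.27, adjusted p = 0.13). Without E7.5 replicate 2, the higher of its E7.5 libraries, Rnf2 was called higher, at 0.23 (adjusted p = 0.0028). Its paralog Ring1 had 11.4 and 11.1 at E7.5 against 9.24 and 9.40 at E8.5 (log2 fold change -0.25, 95% interval -0.52 to 0.028, adjusted p = 0.12), and Rnf2 held 93.9% of their summed level per kilobase at E7.5 and 95.3% at E8.5.

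The 6 PCGF genes, whose products pair with the RING ligase and define the type of PRC1, held 2 that fell and 4 that were not called. The share called was 33.3%, against 52.0% of all genes tested. Pcgf6, the partner in the variant PRC1 that contains E2F6 and MGA, was the most abundant of them per kilobase, with 38.6% of their summed level at E7.5 and 35.8% at E8.5. With the length of the longest coding transcript in place of the exon union, these shares were 50.3% and 47.6%. Pcgf6 had normalized counts of 94.2 and 97.3 at E7.5 against 81.6 and 80.8 at E8.5, a log2 fold change of -0.23 (adjusted p = 0.0072). Pcgf5, a partner in another variant PRC1, had 28.6 and 35.5 at E7.5 against 26.7 and 22.0 at E8.5, a log2 fold change of -0.38 (adjusted p = 0.013). Both calls were lost with fewer libraries. Pcgf6 missed the threshold when either E8.5 library was left out (adjusted p = 0.066 without replicate 1 and 0.081 without replicate 2), and Pcgf5 without E7.5 replicate 2 (-0.23, adjusted p = 0.17) and without E8.5 replicate 2 (-0.25, adjusted p = 0.18). Pcgf3 had 76.6 and 72.9 at E7.5 against 82.5 and 84.999 at E8.5 (log2 fold change 0.16, adjusted p = 0.058), and passed the threshold without E7.5 replicate 1 (0.20, adjusted p = 0.034). The canonical partners Pcgf2 (Mel18) and Bmi1 and the variant partner Pcgf1 were not called, with log2 fold changes of -0.15, -0.16 and -0.057. Per kilobase Pcgf2 exceeded Bmi1 at both stages, at 10.5 against 3.86 at E7.5 and 9.49 against 3.42 at E8.5.

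The canonical PRC1 subunits held the largest changes of the members. Of the 9 genes, 3 rose and 4 fell (77.8% called, against 52.0% of all genes tested), with log2 fold changes between -2.40 and 1.07. The calls of 3 of these 7, Cbx8, Phc3 and Scml2, were lost in at least 1 fit with a library left out. Cbx7, a chromodomain protein that binds methylated H3K27 and is the CBX protein of canonical PRC1 in mouse embryonic stem cells, fell the most. Its normalized counts were 33.9 and 36.0 at E7.5 against 6.14 and 5.53 at E8.5, from 604 and 709 reads to 117 and 106. It was 5.99-fold lower at E8.5, a log2 fold change of -2.40 ± 0.12 (SE, adjusted p = 2.9e-10), and the values without any 1 library ranged from -2.46 to -2.33. Cbx2, the CBX protein with a strong role in compaction and in the patterning of the axial skeleton, had 114 and 104 at E7.5 against 108 and 106 at E8.5. Its stages overlapped (log2 fold change -0.033, 95% interval -0.18 to 0.11). Cbx2 was already the most abundant of the 4 CBX genes measured here at E7.5, with 79.0% and 77.0% of their summed level per kilobase. At E8.5 it held 91.5% and 91.6%, and the share of Cbx7 went from 15.4% and 17.4% to 3.41% and 3.15%. When levels were taken per length of the longest coding transcript, a choice made after seeing the data, the mean share of Cbx7 went from 24.7% to 5.37%.

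Cbx7 lies on chromosome 15 (chr15:79915807-79971119, GRCm38) and shares 100 exon bases (1.54%) with Apobec3 on the other strand. Apobec3 had values of 19.5 and 18.7 at E7.5 against 4.20 and 3.45 at E8.5 (log2 fold change -2.06 ± 0.14 SE), and the part of these shared bases in the result for Cbx7 was not tested. Cbx6 had 12.7 and 11.9 at E7.5 against 11.0 and 10.02 at E8.5 (log2 fold change -0.21, adjusted p = 0.18). Cbx8 was low, with 46 and 48 reads at E7.5 against 26 and 34 at E8.5. Its log2 fold change of -0.45 (adjusted p = 0.040) was lost in 7 of 13 alternatives. These included edgeR (adjusted p = 0.066) and DESeq2 (0.24), and the fits without E7.5 replicate 1 (-0.42, adjusted p = 0.13), without E7.5 replicate 2 (-0.49, 0.082) and without E8.5 replicate 1 (-0.34, 0.22).

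The Polyhomeotic genes changed in opposite directions. Their products polymerise through a SAM domain and hold canonical PRC1 in clusters. Phc1 had normalized counts of 66.7 and 67.5 at E7.5 against 32.0 and 30.1 at E8.5. It was 2.16-fold lower, a log2 fold change of -1.09 ± 0.078 (SE, adjusted p = 2.4e-08), and the 2 stages were far apart against the spread of their replicates. Phc2 had 22.4 and 19.6 at E7.5 against 30.9 and 34.4 at E8.5, and was 1.55-fold higher (log2 fold change 0.61 ± 0.10 SE, adjusted p = 1.4e-04). Phc3 had 14.3 and 12.7 at E7.5 against 16.9 and 20.3 at E8.5, a log2 fold change of 0.43 (adjusted p = 0.0083) that was lost without E7.5 replicate 2 (0.36, adjusted p = 0.070) and without E8.5 replicate 2 (0.31, adjusted p = 0.13). Per kilobase, Phc1 made up 76.0% and 78.4% of the summed level of the 3 genes at E7.5 against 53.1% and 48.5% at E8.5. The share of Phc2 went from 19.1% and 17.1% to 38.4% and 41.6%, so that Phc2 came close to Phc1 at E8.5. With the length of the longest coding transcript in place of the exon union, the order of these 2 genes at E8.5 was reversed, at 42.5% for Phc1 and 47.7% for Phc2.

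The SCM genes, homologs of the fly gene Sex comb on midleg that bind PRC1 through a SAM domain, also went in opposite directions. Scmh1 had normalized counts of 11.6 and 13.0 at E7.5 against 26.6 and 27.2 at E8.5. It was 2.18-fold higher, a log2 fold change of 1.07 ± 0.11 (SE, adjusted p = 1.2e-06), and between 0.99 and 1.14 without any 1 library. Scml2, on the X chromosome, had 8.15 and 9.74 at E7.5 against 4.93 and 6.74 at E8.5. Its log2 fold change of -0.55 (adjusted p = 0.011) was lost without E7.5 replicate 2 (-0.43, adjusted p = 0.12) and without E8.5 replicate 1 (-0.36, adjusted p = 0.13). The share of Scmh1 in their summed level per kilobase went from 52.9% and 51.3% to 80.9% and 76.1%. With the length of the longest coding transcript in place of the exon union, its mean share went from 66.6% to 87.0%.

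**Figure D3:**
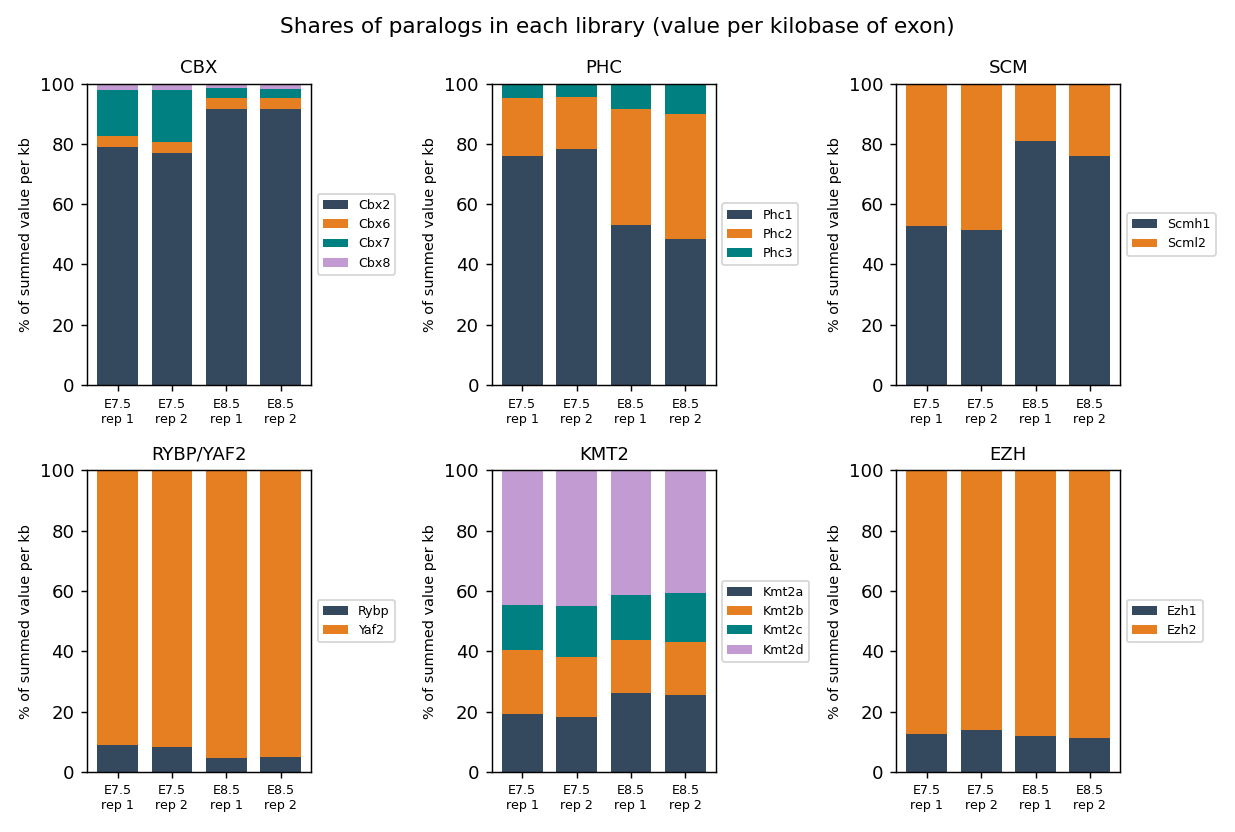
Share of each paralog in the summed value per kilobase of exon of its family (vertical axis, percent) in each of the 4 libraries, for 6 families. The bar segments of Cbx7, Phc1 and Scml2 are narrower in both E8.5 libraries, at 3.41% and 3.15%, 53.1% and 48.5%, and 19.1% and 23.9%, while Ezh2 stays between 86.2% and 88.9%.

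The promoters of the 2 canonical PRC1 genes that fell most and the 2 that rose most are shown because CpG-rich promoter DNA is what Kdm2b and Mtf2 bind, and the genes differ widely in it. The sequences are the 250 bases before the start site in RefSeq (GRCm38.p6), on the strand of the gene and from 5′ to 3′, and capitals mark each CpG. Of the RefSeq start sites of a gene, the one nearest to its 5′ end in GENCODE is shown. For Cbx7 this site lies 38473 bases inside the GENCODE gene, and for the other 3 genes it lies within 334 bases of the GENCODE start. Cbx7 is at chr15:79932647-79932896 (minus strand), Phc1 at chr6:122340228-122340477 (minus), Scmh1 at chr4:120405098-120405347 (plus) and Phc2 at chr4:128654452-128654701 (plus).
Cbx7: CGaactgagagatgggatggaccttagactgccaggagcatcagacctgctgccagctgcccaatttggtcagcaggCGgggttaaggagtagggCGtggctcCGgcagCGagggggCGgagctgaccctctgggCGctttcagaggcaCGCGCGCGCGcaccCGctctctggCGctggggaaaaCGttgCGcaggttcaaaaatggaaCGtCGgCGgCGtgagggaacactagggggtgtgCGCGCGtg
Phc1: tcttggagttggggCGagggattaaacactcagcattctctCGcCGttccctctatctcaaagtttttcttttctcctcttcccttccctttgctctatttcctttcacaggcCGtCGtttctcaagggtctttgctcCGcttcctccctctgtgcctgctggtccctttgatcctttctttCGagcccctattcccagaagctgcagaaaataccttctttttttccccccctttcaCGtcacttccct
Scmh1: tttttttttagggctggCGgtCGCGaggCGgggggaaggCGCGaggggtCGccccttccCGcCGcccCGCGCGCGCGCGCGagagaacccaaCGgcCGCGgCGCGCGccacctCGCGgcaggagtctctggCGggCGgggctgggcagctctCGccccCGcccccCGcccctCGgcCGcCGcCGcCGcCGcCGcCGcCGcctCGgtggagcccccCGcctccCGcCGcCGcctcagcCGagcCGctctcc
Phc2: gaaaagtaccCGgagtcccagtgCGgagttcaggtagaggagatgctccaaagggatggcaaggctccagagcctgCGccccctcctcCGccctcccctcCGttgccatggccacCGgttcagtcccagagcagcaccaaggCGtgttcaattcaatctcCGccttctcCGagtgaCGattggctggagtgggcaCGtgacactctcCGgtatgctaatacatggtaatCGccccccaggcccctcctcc
Cbx7 has 23 CpG in this window, Phc1 8, Scmh1 45 and Phc2 13. The median was 6 over all 32851 windows of this kind in the table and 20.5 over the 36 members with one. Members that fell had a median of 22.5 (n = 12), those that rose 23 (n = 5) and those not called 18 (n = 18), and these medians lay close together. On either strand, the GC box GGGCGG was found in 26 of the 36 windows of members (72.2%, against 32.7% of all windows), the CCAAT box CCAAT in 11 (30.6%, against 33.8%) and the octamer ATGCAAAT in 0 (against 1.60% of all windows). The set of all windows was not limited to the genes tested here, and some genes have several windows in it. Whether members differ from the other tested genes in CpG or in these motifs was therefore not tested.

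Among the subunits of variant PRC1, Yaf2 rose and both Kdm2b and Bcor fell. Kdm2b carries a zinc finger that binds unmethylated CpG and brings a variant PRC1 to CpG islands. It had normalized counts of 66.3 and 61.2 at E7.5 against 40.5 and 36.5 at E8.5, and was 1.65-fold lower (log2 fold change -0.71 ± 0.082 SE, adjusted p = 4.0e-06). Of its exon bases 1.83% are shared with A930024E05Rik on the other strand, which had 8.82 and 10.7 at E7.5 against 3.94 and 5.06 at E8.5, and 5.77% with Rnf34, which had 92.2 and 94.0 against 82.7 and 85.8. The part of these bases was not tested. Bcor, a corepressor of the same complex, had 34.6 and 33.9 at E7.5 against 25.1 and 26.1 at E8.5 (log2 fold change -0.41, adjusted p = 0.0014). Pcgf1, the PCGF protein of that complex, had 8.99 and 9.38 at E7.5 against 8.71 and 8.88 at E8.5 (95% interval of the log2 fold change -0.34 to 0.23).

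Yaf2 had normalized counts of 50.1 and 61.5 at E7.5 against 85.7 and 89.0 at E8.5. It was 1.57-fold higher, a log2 fold change of 0.64 ± 0.087 (SE, adjusted p = 2.0e-05), and the stages were apart although the E7.5 replicates differed (0.50 without E7.5 replicate 1 and 0.79 without E7.5 replicate 2). Rybp, its paralog and alternative in the complex, had 12.4 and 14.0 at E7.5 against 10.5 and 11.4 at E8.5 (log2 fold change -0.25, adjusted p = 0.11). Yaf2 was the more abundant per kilobase at both stages, with 91.1% and 91.7% of the pair at E7.5 against 95.4% and 95.2% at E8.5. Over the 21 genes of PRC1, 4 rose and 8 fell, with a median log2 fold change of -0.21. The 57.1% called lies near the 52.0% of all genes tested. The number that fell was 5 without E7.5 replicate 2 and 5 without E8.5 replicate 1, and the 4 that rose ranged from 3 to 5 when a library was left out.

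**Figure D4:**
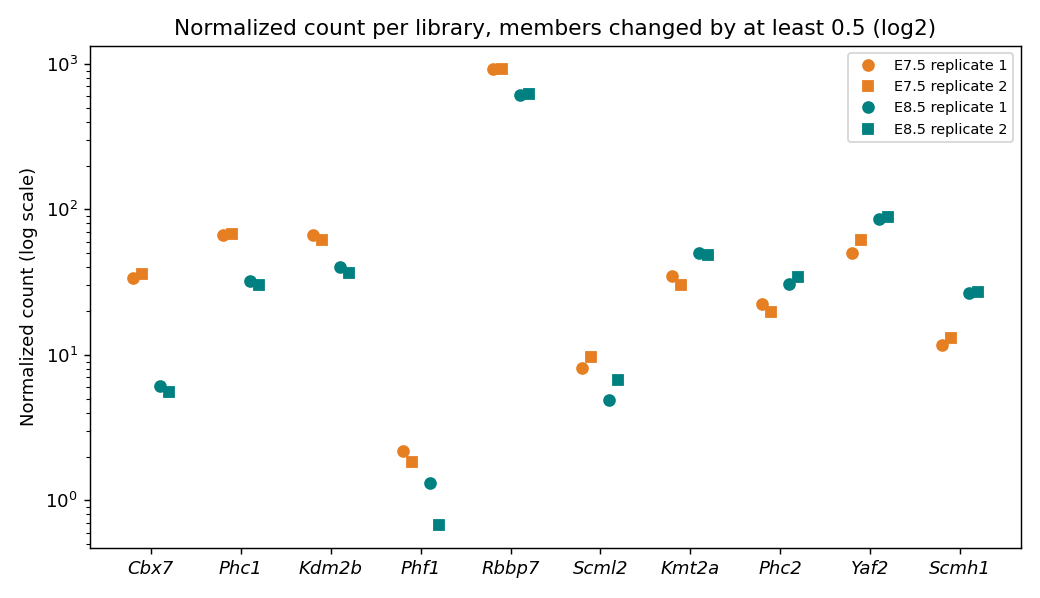
Normalized count (vertical axis, log scale) in each of the 4 libraries for the 10 members called with a change of at least 0.5 on the log2 scale, ordered by change. In all 10 genes both E8.5 points lie on one side of both E7.5 points, from Cbx7 (33.9 and 36.0 to 6.14 and 5.53) to Scmh1 (11.6 and 13.0 to 26.6 and 27.2). The genes were chosen by these same values, so the separation adds no support to the calls. Over all genes tested, 37.2% lay above and 39.1% below in this way.

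On the side of activation, the enzymes that remove H3K27 methylation showed no change that passed the test. Kdm6a (UTX), a demethylase carried by the MLL3 and MLL4 complexes, had normalized counts of 53.3 and 57.3 at E7.5 against 60.2 and 54.6 at E8.5 (log2 fold change 0.053, 95% interval -0.12 to 0.22). Kdm6b (JMJD3) had 39.6 and 34.6 at E7.5 against 37.1 and 36.8 at E8.5 (log2 fold change -0.0036, 95% interval -0.19 to 0.19). The stages overlapped for both genes. Kdm6a is X-linked and escapes X inactivation, so its level depends on the sex of the pooled embryos. Xist, made from the inactive X of female cells, had values of 103 and 114 at E7.5 against 175 and 167 at E8.5. Among Y-linked genes, Ddx3y had 38.2 and 46.4 at E7.5 against 51.7 and 53.7 at E8.5, while Eif2s3y had 45.5 and 48.1 at E7.5 against 46.4 and 44.7 at E8.5. Uty, the Y-linked paralog of Kdm6a, had 23.3 and 26.5 at E7.5 against 37.5 and 36.1 at E8.5, and Kdm5d had 19.9 and 19.3 against 22.5 and 19.9. Xist rose by 0.65 on the log2 scale, Uty by 0.55 and Ddx3y by 0.32, while Eif2s3y and Kdm5d were not called, and all 4 libraries held RNA of both Xist and the Y-linked genes. The part of the proportion of the sexes in the values of Kdm6a and of the other X-linked members (Rbbp7, Scml2 and Bcor) was not tested.

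Kmt2a (MLL1), the methyltransferase that maintains Hox gene expression, was the only one of the 4 MLL genes called. It had normalized counts of 34.8 and 30.1 at E7.5 against 50.3 and 48.6 at E8.5, and was 1.52-fold higher (log2 fold change 0.60 ± 0.088 SE, adjusted p = 4.9e-05). Kmt2b (MLL2), its paralog, had 22.1 and 18.6 at E7.5 against 19.7 and 19.5 at E8.5, and these values overlapped (95% interval of the log2 fold change -0.29 to 0.19). Kmt2c (MLL3) and Kmt2d (MLL4), which mark enhancers, had log2 fold changes of 0.10 and 0.024 and were not called. Per kilobase, Kmt2d was the most abundant of the 4, with 44.6% and 45.1% of their sum at E7.5 against 41.3% and 40.8% at E8.5. The share of Kmt2a went from 19.1% and 18.3% to 26.0% and 25.4%, which placed it above Kmt2b at E8.5 but not at E7.5, when Kmt2b had 21.2% and 19.6%.

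Of the subunits shared by the MLL complexes, Wdr5, which presents the histone H3 tail, had 158 and 156 at E7.5 against 129 and 133 at E8.5 (log2 fold change -0.26 ± 0.060 SE, adjusted p = 0.0020). It missed the threshold without E8.5 replicate 1 (-0.24, adjusted p = 0.059), which left 0 trithorax members that fell. Ash2l, Rbbp5 and Dpy30, which with Wdr5 form the module that activates the MLL enzymes, were not called, with log2 fold changes of -0.065, 0.0066 and -0.11. Men1, which encodes menin and tethers Kmt2a and Kmt2b to chromatin, had 68.7 and 66.1 at E7.5 against 67.5 and 61.2 at E8.5 (log2 fold change -0.068, adjusted p = 0.47). Over the 11 genes for H3K27 demethylases and MLL complexes, 1 rose, 1 fell and 9 were not called, with a median log2 fold change of -0.0036. The share called was 18.2%, below the 52.0% of all genes tested.

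Other genes of these systems were taken from lists made from general knowledge of the complexes. Among 28 tested genes of further Polycomb subunits and partners, 9 rose and 6 fell (median 0.093). The share called was 53.6%, near the 52.0% of all genes tested. Epop, a partner of PRC2 known from mouse embryonic stem cells, fell by 1.02 on the log2 scale, from 16.2 and 13.1 to 6.77 and 6.63. Sfmbt2, an MBT-domain protein, fell by 1.57, and L3mbtl3, another MBT-domain protein, fell by 0.73. The largest increases were those of Lcorl (0.87), from a family of PRC2 partners, Mbd5 (0.85), which binds the Polycomb deubiquitinase, and Bcorl1 (0.78), the paralog of Bcor. Bcor and Bcorl1 thus moved in opposite directions, from 34.6 and 33.9 to 25.1 and 26.1 for Bcor and from 18.0 and 14.6 to 29.7 and 27.2 for Bcorl1.

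Of 10 tested genes for other trithorax methyltransferases and their subunits, 4 rose and 2 fell (median 0.12). The share called was 60.0%, against 52.0% of all genes tested. Kmt2e (MLL5), a divergent member of the MLL family, rose by 1.31 on the log2 scale, from normalized counts of 28.0 and 26.9 to 72.6 and 66.9. Psip1 (LEDGF), a chromatin tether for menin and Kmt2a, rose by 0.77, and Ash1l, a methyltransferase of histone H3 at lysine 36, rose by 0.58. Wdr82 and Cxxc1, subunits of the SETD1 complexes, fell by 0.57 and 0.30, the latter not without E7.5 replicate 1 (-0.24, adjusted p = 0.058) or without E8.5 replicate 2 (-0.25, adjusted p = 0.10). Of 27 tested genes of the SWI/SNF remodellers, which oppose Polycomb, 9 rose and 2 fell (40.7% called, median 0.14), and without E8.5 replicate 1 the numbers were 3 and 0. The 40.7% called lies below the 52.0% of all genes tested. The largest increases were in Phf10 (0.82), Smarcc2 (0.65) and Pbrm1 (0.61). Smarcd3, a subunit of heart and muscle complexes, fell by 0.60 at a value near 1 (-0.51 and adjusted p = 0.078 without E8.5 replicate 1). Bicral fell by 0.38, a call lost without E7.5 replicate 1 (adjusted p = 0.20) or when either E8.5 library was left out (0.14 for replicate 1 and 0.066 for replicate 2).

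Markers of other cell types that the dissected tissue could hold differed between the stages. All 10 listed genes of the posterior epiblast and axial progenitors were detected in every library, and of them 4 rose and 4 fell. All 12 markers of visceral endoderm fell, with a summed value of 2805 and 2725 at E7.5 against 348 and 356 at E8.5. All 10 endothelial markers rose, from a summed value of 70.6 and 70.5 to 256 and 238. Of 8 tested markers of primitive red and other blood cells 7 rose, from a sum over the 9 listed of 20.9 and 21.5 to 424 and 425. The other, Runx1, fell from 7.14 and 8.42 at E7.5 to 1.99 and 1.62 at E8.5. Of the embryonic globins, Hba-x and Hbb-y were at 0 in both E7.5 libraries, and Hbb-bh1 had 5 reads in each. These shifts run beside the falls of Cbx7, Phc1 and Kdm2b and the rises of Scmh1, Yaf2 and Kmt2a, and their part in them was not tested. In such bulk samples, fewer cells of a type and less RNA per cell cannot be told apart.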

How the data were processed

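RNA-seq libraries of posterior epiblast (E7.5 and E8.5, n = 2 pools each) were prepared by the authors with SMART-Seq2 and sequenced as single-end reads of 75 bases. The authors aligned reads to mm10 with STAR and deposited 1 signal value per gene and library. It is a read count scaled by an effective library size, the reads of a library times a normalization factor. In E7.5 replicate 1, 1 read gave a value of 0.0562, so normalized counts are not numbers of reads. The paper's methods name DESeq2 for normalization, the submitters' processing notes edgeR. The effective size was below the reads in E7.5 replicate 1 (17792013 against 19111464) and above them in the other libraries. Normalization factors computed here with edgeR (TMM) were 0.932 for that library and 1.02 to 1.03 for the others, which goes with edgeR. The counting program is not given in the sources used here. Values were whole multiples of a step per library for 100% of genes (tolerance 0.0001), which returned the reads.

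Values were compared as log2(value + 1) in limma 3.58.1 (R 4.3.3, lmFit and eBayes with trend, 2 residual and 12.8 prior degrees of freedom), over genes that reached 1 in 2 or more libraries, with Benjamini-Hochberg adjustment over all 13903. Replicates differed by a median of 0.116 (E7.5) and 0.0947 (E8.5) in absolute log2 value. The labels tell libraries of a stage apart only by replicate number, and the pools are known from the paper's methods. The intervals describe these pools. With 12.8 prior against 2 residual degrees of freedom they rest mostly on variance pooled over genes. Alternatives were edgeR 4.0.16 and DESeq2 1.42.0 on recovered reads, other pseudocounts (0.1 and 4), filters and scalings, no trend, each library left out, and a replicate block. Lengths, positions and overlaps came from GENCODE vM21, which held all 53397 identifiers. Levels per kilobase are values divided by the exon union.

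Members and lists were chosen with earlier results of these data known. Named were all members, with values per library for nearly all, and of each other pathway list, among its called genes, up to 3 that rose most and 3 that fell most. Cuta, Apobec3 and the sex-linked genes were named for their bearing on a member. The 2 highest risers and fallers with a RefSeq window gave the promoters, and Yaf2 had none.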

Additional observations from a re-analysis of the deposited data

How the results depend on the processing

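Of the 18 members called, 10 (5 that rose and 5 that fell) were called under the main test and each of 14 alternatives, and 8 lost the call in at least 1, namely Jarid2, Phf1, Pcgf5, Pcgf6, Cbx8, Phc3, Scml2 and Wdr5. No called member changed direction. Pcgf3 was called with edgeR (0.17, adjusted p = 0.047) and when totals without the most abundant gene were made equal (0.18, adjusted p = 0.036). With no filter on low values 8 members fell, 5 genes of PRC1 fell in place of 8, 1 other trithorax gene fell in place of 2, and 3 SWI/SNF genes rose and 0 fell in place of 9 and 2. With a minimum of 5, 1 SWI/SNF gene fell. With DESeq2 5 SWI/SNF genes rose and 0 fell, and without the mean-variance trend 4 SWI/SNF genes rose and 3 cell cycle genes fell in place of 7. When 1 library was left out, between 5 and 7 members rose and between 7 and 10 fell. By group, 1 to 2 rose and 2 to 4 fell in PRC2, 3 to 5 rose and 5 to 7 fell in PRC1, and 1 rose and 0 to 1 fell in the trithorax genes. The other lists gave 7 to 9 risen and 5 to 7 fallen (Polycomb), 3 to 4 and 1 to 2 (trithorax), 3 to 9 and 0 to 3 (SWI/SNF), and 3 to 6 and 3 to 7 (cell cycle). The labels do not say whether same-numbered libraries were paired. The deviations of same-numbered libraries had a correlation of -0.0025 across genes. With 2 libraries per stage this value cannot tell whether they were paired. With the replicate block 6 members rose and 12 fell, and no call changed. Depth limits Phf1, Phf19 and Cbx8, with 13 to 48 reads per library.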

Other observations

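Cell cycle genes, with which several Polycomb genes are co-expressed in dividing tissue, showed no common direction. Of 24 tested, 3 rose and 7 fell (41.7% called, against 52.0% of all genes tested), with a median log2 fold change of 0.0083. The cyclins E went in opposite directions. Ccne1 fell by 0.79 on the log2 scale, from normalized counts of 207 and 212 at E7.5 to 120 and 121 at E8.5, and Ccne2 rose by 0.51, from 108 and 121 to 165 and 161. Bub1, a kinase of the spindle checkpoint, rose by 0.45 and Mki67, the proliferation antigen, by 0.40. Cdc20, an activator of the anaphase-promoting complex, fell by 0.41 and Mcm2, a subunit of the replicative helicase, by 0.28. Without E7.5 replicate 2, 6 of these genes rose, and without either E8.5 library 3 fell.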
